A study of Mus musculus with 12 samples.

Results

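The 41 autophagy genes described here were chosen by name from the known steps of the pathway, with earlier results of these data known. They were found by symbol among the 53801 gene identifiers of the deposited counts. All 41 were matched, and 40 passed the filter on low counts. They comprised 5 genes of the ULK complex, 6 of the PI3-kinase complex, 5 for membrane supply and binding of its lipid mark, 10 for conjugation, 5 LC3 and GABARAP genes, 6 cargo receptors and 4 lysosomal regulators.

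Autophagy encloses cell contents in a growing membrane and delivers them to the lysosome. The ULK kinase complex starts the process and the PI3-kinase complex marks the membrane with the lipid PI3P, which WIPI proteins bind, while ATG2 and ATG9 proteins supply lipid. Conjugation enzymes then attach LC3 and GABARAP proteins to the membrane, receptors tie cargo to these proteins, and the lysosome, under the transcription factors TFEB and TFE3, degrades what arrives. In muscle, autophagy is known for the turnover of mitochondria and proteins, and in cells under endoplasmic reticulum (ER) stress for the removal of parts of the ER.

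RNA-seq was run on cultured C2C12 cells, which are mouse myoblasts. Thapsigargin blocks the SERCA calcium pump and so disturbs protein folding in the ER. Control cells with 6 h of DMSO, the solvent, form the group Ctrl-DMSO, and control cells with 6 h of thapsigargin form Ctrl-Thap. Cells with Cebpg knocked down form Sh2-DMSO and Sh2-Thap under the same treatments, with 3 libraries in each of the 4 groups. The product of Cebpg is C/EBP gamma, a leucine zipper transcription factor. The knockdown carries the single label Sh2, and the sources used here give neither what the control cells received nor the thapsigargin dose, so an effect of losing Cebpg and any other difference between the cell populations cannot be told apart. The source field names C2C12, whereas the growth protocol names HeLa cells. The counts are given for mouse gene identifiers, of which 53706 of 53801 matched the mouse annotation, and the cells were taken as C2C12 here.

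Libraries held 29.42 to 47.72 M gene reads. Levels are reads per M of the scaled library size (scaled CPM), with the mean ± SD over n = 3 libraries where a group is summarised. Cebpg stood at 54.6 ± 5.21 scaled CPM in Ctrl-DMSO, 216 ± 3.96 in Ctrl-Thap, 4.52 ± 0.723 in Sh2-DMSO and 5.66 ± 0.419 in Sh2-Thap, so the labels of the knockdown hold in all 12 libraries. In at least 1 library, 1 scaled CPM was reached by all 6 myoblast and all 5 endothelial markers. It was reached by 3 of 5 fibroblast and smooth muscle, 3 of 5 epithelial, 1 of 5 leukocyte and 1 of 4 adipocyte markers. The summed level of the myoblast markers ranged from 1648 to 2144 over all libraries. Among other cell types, the 5 endothelial markers summed to 4.2 to 5.12 in Ctrl-DMSO and 27.5 to 32.3 in Ctrl-Thap, and to 5.9 to 6.96 in Sh2-DMSO and 18.4 to 21.1 in Sh2-Thap. The 5 fibroblast and smooth muscle markers summed to 2830 to 2919 in Ctrl-DMSO, 1151 to 1252 in Ctrl-Thap, 3960.1 to 4366 in Sh2-DMSO and 2114 to 2334 in Sh2-Thap. The 5 epithelial markers summed to 0.318 to 0.43 in Ctrl-DMSO, 2.99 to 3.57 in Ctrl-Thap, 1.09 to 1.13 in Sh2-DMSO and 7.2 to 8.5 in Sh2-Thap. Leukocyte markers summed to at most 6.96 in any library and adipocyte markers to at most 1.89. No marker was at 0 in all 12 libraries. The part of these lists in the results below was not tested.

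Promoters of 35 of the 41 genes were found in RefSeq's table for GRCm38.p6, from 250 bases before to 50 after the start site. The E-box core CACGTG, the letters bound by TFEB and TFE3 among other factors, was searched on both strands. It lay in the promoter of 5 of the 35 genes (14.3%), beside 8.09% of 27025 genes with a promoter in the table. The stretches around it are shown for these 5 genes because they hold the motif; whether TFEB or TFE3 acts on them was not tested. Capitals mark CACGTG, and the strand is that of the gene.
Atg7 (chr6:114670944-114670989, plus strand): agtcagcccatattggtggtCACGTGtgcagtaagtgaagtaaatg
Lamp1 (chr8:13159080-13159171, plus strand): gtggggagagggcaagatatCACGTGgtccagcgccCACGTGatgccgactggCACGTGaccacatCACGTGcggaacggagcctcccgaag
Atg5 (chr10:44268305-44268350, plus strand): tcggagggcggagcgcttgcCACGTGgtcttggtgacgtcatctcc
Atg14 (chr14:47568410-47568455, minus strand): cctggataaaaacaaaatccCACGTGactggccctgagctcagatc
Atg3 (chr16:45158715-45158783, plus strand): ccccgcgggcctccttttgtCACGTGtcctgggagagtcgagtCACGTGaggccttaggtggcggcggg
Lamp1 held 4 copies and Atg3 held 2. For Atg3, Atg7 and Atg14 the RefSeq start used here lies inside the gene as GENCODE annotates it, downstream of the first annotated start. The longer form TCACGTGA, which contains CACGTG and is known from lysosomal genes, lay in 1 of the 35 promoters (2.9%), that of Atg3, beside 1.12% of all genes.

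The cyclic AMP response element TGACGTCA lay in 1 of the 35 promoters (2.9%), that of Atg5, beside 2.03% of all genes. The C/EBP-ATF response element TGATGNAAN, known as a site of ATF4 with C/EBP partners, was in 0 of the 35 promoters, beside 4.5% of all genes. The stress element core TGACGTGG was likewise in 0 of 35, beside 0.714% of all genes. It shares the bases ACGTG with the E-box core, and all motifs were read on both strands. No match says only that these letters are not in the window.

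The promoters of Sqstm1, Atg13 and Ulk1 are shown because Sqstm1 had the largest thapsigargin change of all members in control cells, and Atg13 and Ulk1 those of the ULK complex. The base at the annotated start is in capitals.
Sqstm1 (chr11:50210771-50211070, minus strand): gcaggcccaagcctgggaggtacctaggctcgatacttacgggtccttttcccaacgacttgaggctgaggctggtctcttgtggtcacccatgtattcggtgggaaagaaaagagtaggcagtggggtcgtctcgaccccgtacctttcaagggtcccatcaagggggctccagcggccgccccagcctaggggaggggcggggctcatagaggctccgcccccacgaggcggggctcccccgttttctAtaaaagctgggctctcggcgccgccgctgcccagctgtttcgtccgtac
Atg13 (chr2:91710543-91710842, minus strand): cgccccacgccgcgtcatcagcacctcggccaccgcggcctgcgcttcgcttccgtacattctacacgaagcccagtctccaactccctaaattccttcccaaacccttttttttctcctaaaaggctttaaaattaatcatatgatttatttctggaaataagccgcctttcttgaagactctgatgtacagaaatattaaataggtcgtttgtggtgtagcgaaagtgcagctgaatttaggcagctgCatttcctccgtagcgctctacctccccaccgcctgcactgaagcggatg
Ulk1 (chr5:110810032-110810331, minus strand): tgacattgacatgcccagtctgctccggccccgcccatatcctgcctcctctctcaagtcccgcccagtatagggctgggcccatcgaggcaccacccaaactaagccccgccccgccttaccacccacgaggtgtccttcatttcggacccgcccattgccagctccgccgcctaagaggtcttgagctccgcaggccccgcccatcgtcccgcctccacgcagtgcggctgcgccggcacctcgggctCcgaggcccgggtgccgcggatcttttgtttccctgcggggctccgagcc

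In control cells, thapsigargin moved the members in both directions. Higher were 4 of the 5 tested cargo receptors among the members and part of the starting machinery. Lower were 4 of the 5 LC3 and GABARAP genes, the LAMP genes and Tfeb. Of the 40 members tested, 16 rose, 17 fell and 7 did not pass an adjusted p of 0.05. The share of all 15828 tested genes called in this comparison was 74.7%, with 37.7% rising and 37% falling, so the members' shares of 40% and 42.5% lay near the background. The median log2 change of the members was -0.07 and that of all genes 0, and the median absolute change was 0.39 against 0.55. A change of 1 or more in log2 was called for Sqstm1, Atg13 and Optn upward and for Tfeb downward, 4 members, where 26.3% of all genes had one, 16.1% upward and 10.2% downward. In bulk RNA, fewer cells that express a gene and less RNA per cell cannot be told apart. Whether the 3 libraries of a group were separate cultures is not stated, so a p-value covers the library-to-library spread alone, which may be technical.

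In knockdown cells, thapsigargin gave 17 members that rose, 19 that fell and 4 that did not pass. The background was 69.8% of all genes called, 35.4% rising and 34.4% falling, against 42.5% and 47.5% of the members. Sqstm1, Atg13 and Uvrag rose by a log2 change of 1 or more and no member fell by as much, beside 19.6% of all genes, 13.2% upward and 6.39% downward. The heat map of log2 changes shows all 40 members in the order of their steps.

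**Figure D1:**
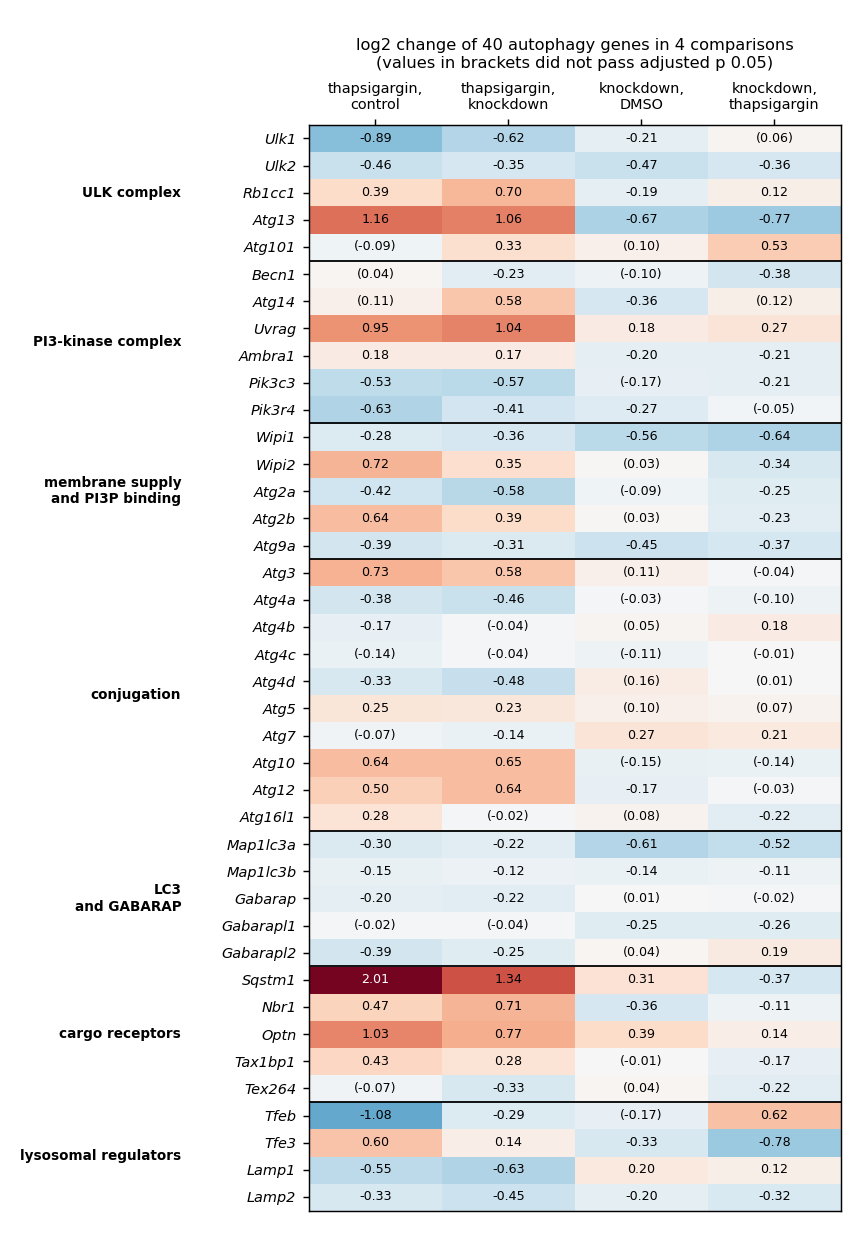
Log2 change of each of the 40 tested autophagy genes (rows, grouped by step) in 4 comparisons (columns), red for higher and blue for lower. Values in brackets did not pass an adjusted p of 0.05. The darkest cells are Sqstm1 (2.01 in control cells and 1.34 in knockdown cells), and the LC3 and GABARAP rows hold no rise with thapsigargin.

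Between the cell populations the changes were smaller. In DMSO, 5 members were higher in knockdown cells, 16 were lower and 19 did not pass, where 51.5% of all genes were called, 25% higher and 26.5% lower. The members' shares were 12.5% and 40%, and their median log2 change was -0.11. Under thapsigargin 9 members were higher in knockdown cells, 20 were lower and 11 did not pass, beside 56.9% of all genes called, 28.5% higher and 28.4% lower. The members' shares were 22.5% and 50%, and scaling by library totals alone left 11 of them lower and 13 higher. That scaling moved the median of all genes by 0.13 in this comparison. No member was called with an absolute change of 1 or more in either comparison by edgeR, DESeq2 or limma-voom, and in edgeR no member's change reached that size at any p. Among all genes 8.91% were called past that size in DMSO (5.05% higher, 3.85% lower) and 11% under thapsigargin (5.08% higher, 5.96% lower). The 4 comparisons share groups with each other, so their counts are not independent.

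The difference of the thapsigargin effects, the change in knockdown cells minus that in control cells, passed for 16 of the 40 members. In 7 it was positive and in 9 negative, where 35.4% of all genes were called, 17.7% in each direction. By edgeR, DESeq2 or limma-voom no member was called with an absolute difference of 1 or more, a size that none reached in edgeR at any p, beside 5.43% of all genes called past that size, 1.93% positive and 3.5% negative. With library totals alone the split was 16 positive and 3 negative, since that scaling moved the median of all genes by 0.16 in this comparison and made 75.6% of all called genes positive instead of 49.9%. The ULK complex had 3 positive differences of 5 members and the receptors 4 negative differences of 5 tested. Among the 10 conjugation genes 1 difference passed (Atg16l1), and among the 5 LC3 and GABARAP genes 0 passed with edgeR, with 0 at an unadjusted p under 0.05, 0 with DESeq2 and 0 with limma-voom. With library totals alone 3 of these 5 differences were called positive, and among the conjugation genes 3 were called positive (Atg4b, Atg4c and Atg12) and Atg16l1 was lost.

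Summed per kilobase of exon (scaled CPM per kilobase, RPKM), the 40 members stood at 1036 ± 24.6 in Ctrl-DMSO, 1554 ± 15.5 in Ctrl-Thap, 1069.6 ± 24.9 in Sh2-DMSO and 1344 ± 15.8 in Sh2-Thap. Sqstm1 carried the higher sums under thapsigargin: the other 39 members summed to 848.5 ± 12.4, 798 ± 11.7, 837 ± 16.5 and 758 ± 13.8 RPKM in the same order, lower under thapsigargin in both populations. The 5 tested receptors summed to 263 ± 11.2 in Ctrl-DMSO, 855 ± 4.79 in Ctrl-Thap, 306 ± 8.77 in Sh2-DMSO and 679 ± 6.17 in Sh2-Thap, and without Sqstm1 to 75.6 ± 1.06, 99.2 ± 1.97, 74 ± 0.447 and 92.9 ± 1.95. The 5 LC3 and GABARAP genes summed to 283 ± 8.88, 247 ± 5.13, 266 ± 8.99 and 233 ± 9.51 in the same order of groups. In Ctrl-DMSO the levels per kilobase ran from 217 ± 4.51 RPKM for Lamp1, 187 ± 12.2 for Sqstm1 and 166 ± 6.94 for Gabarap down to 1.78 ± 0.145 for Tfeb. In Ctrl-Thap, Sqstm1 stood first at 756 RPKM and Tfeb again last of the 40 at 0.838.

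The ULK complex split within itself. Atg13, its adaptor subunit, rose with thapsigargin and was lower in knockdown cells, while the kinase genes Ulk1 and Ulk2 fell. The scaffold gene Rb1cc1 (FIP200) rose, and Atg101, which stabilises ATG13, rose in knockdown cells and did not pass in control cells. In control cells 2 of the 5 rose (40%), 2 fell (40%) and 1 did not pass, near the 37.7% rising and 37% falling of all genes. In knockdown cells 3 rose (60%) and 2 fell (40%), beside 35.4% and 34.4% of all genes.

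Atg13 (ENSMUSG00000027244, chromosome 2, 91674618 to 91710576, minus strand in GRCm38) stood at 63.5, 64.6 and 61 scaled CPM in Ctrl-DMSO and 141, 141 and 139 in Ctrl-Thap. The knockdown libraries held 40, 36.9 and 41.7 in Sh2-DMSO and 83.5, 81.9 and 82.2 in Sh2-Thap. All 4 groups were apart from each other, with Sh2-DMSO lowest and Ctrl-Thap highest. The log2 change with thapsigargin was 1.16 (SE 0.05, edgeR adjusted p = 8.95e-21) in control cells and 1.06 (SE 0.05, adjusted p = 6.68e-19) in knockdown cells, and the difference of -0.09 (SE 0.07, adjusted p = 0.309) did not pass. Knockdown cells held less Atg13 in DMSO (-0.67, SE 0.05, adjusted p = 4.39e-13) and under thapsigargin (-0.77, SE 0.05, adjusted p = 1.27e-15), the largest decrease among the members in DMSO.

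Ulk1 (ENSMUSG00000029512, chromosome 5, 110784488 to 110810097, minus strand) encodes the kinase that starts autophagy. Its libraries held 55.9, 57 and 53.4 scaled CPM in Ctrl-DMSO, 29.9, 29.9 and 29.9 in Ctrl-Thap, 46.1, 47.4 and 50 in Sh2-DMSO and 30.3, 30.4 and 32.9 in Sh2-Thap. The DMSO groups lay apart from each other and above both thapsigargin groups, which nearly met. The fall was -0.89 (SE 0.06, edgeR adjusted p = 5.73e-16) in control cells and -0.62 (SE 0.06, adjusted p = 1.37e-11) in knockdown cells, and the difference of 0.27 (SE 0.08, adjusted p = 0.00591) passed. Knockdown cells began lower in DMSO (-0.21, SE 0.05, adjusted p = 0.00124), and under thapsigargin the difference of 0.06 (SE 0.06, adjusted p = 0.37) did not pass.

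Ulk2, the related kinase, went from 70.6 ± 2.42 to 51.5 ± 3.17 scaled CPM in control cells and from 51.1 ± 1.17 to 40.1 ± 2.35 in knockdown cells. It fell with thapsigargin in both and was lower with the knockdown in both treatments. Rb1cc1 rose from 90.2 ± 6.58 to 118 ± 2.73 in control cells and from 79.2 ± 3.1 to 129 ± 5.67 in knockdown cells, and the rise was larger in the latter (difference 0.31, SE 0.07, edgeR adjusted p = 0.000764). Atg101 stood at 32.1 ± 2.52 and 30 ± 2.27 in the control groups, a change of -0.09 that did not pass, and rose from 34.4 ± 2.76 to 43.3 ± 2.65 in knockdown cells (difference 0.43, SE 0.10, adjusted p = 0.000827). The positive differences of Ulk1, Rb1cc1 and Atg101 passed under all 20 alternatives run. The higher Rb1cc1 level in knockdown cells under thapsigargin (0.12, adjusted p = 0.0338) was lost without Sh2-Thap replicate 1 (0.0649) or 2 (0.175), without Ctrl-Thap replicate 1 (0.0919) or 3 (0.101), and with DESeq2 (0.0512).

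In the PI3-kinase complex, Uvrag rose with thapsigargin while the catalytic subunit gene Pik3c3 (VPS34) and its partner Pik3r4 (VPS15) fell. Of the 6 genes, 2 rose, 2 fell and 2 did not pass in control cells, 33.3% in each direction, near the 37.7% and 37% of all genes. In knockdown cells 3 rose and 3 fell, 50% in each direction, beside 35.4% and 34.4% of all genes. Summed per kilobase the complex moved little, from 31.2 ± 0.373 to 32.8 ± 0.776 RPKM in control cells and from 28.1 ± 0.765 to 31.1 ± 0.656 in knockdown cells.

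Uvrag (ENSMUSG00000035354, chromosome 7, 98885021 to 99141141, minus strand) encodes a subunit of the form of the complex found on endosomes. It stood at 31.8, 29.9 and 33 scaled CPM in Ctrl-DMSO, 54.7, 63.4 and 65 in Ctrl-Thap, 32.8, 36 and 38.6 in Sh2-DMSO and 71.9, 72.6 and 77 in Sh2-Thap. The 2 DMSO groups overlapped, and both thapsigargin groups lay above them, with Sh2-Thap highest. Thapsigargin raised it by 0.95 in control cells (SE 0.06, edgeR adjusted p = 1.3e-14) and 1.04 in knockdown cells (SE 0.06, adjusted p = 1.92e-15). The rise with the knockdown in DMSO (0.18, adjusted p = 0.0212) was lost without Ctrl-DMSO replicate 2 (0.08) or Sh2-DMSO replicate 3 (0.14), and with library totals alone (0.0551). In the annotation 17.6% of its exon bases are shared with another gene, Gm45187.

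Pik3r4 (ENSMUSG00000032571, chromosome 9, 105642978 to 105687657, plus strand) encodes the regulatory subunit. Its libraries held 36.9, 36 and 35.9 scaled CPM in Ctrl-DMSO, 22.9, 23.5 and 23.8 in Ctrl-Thap, 29.3, 30.7 and 30.3 in Sh2-DMSO and 24.2, 21.8 and 21.7 in Sh2-Thap. The thapsigargin groups overlapped and lay below Sh2-DMSO, which lay below Ctrl-DMSO. The decrease was -0.63 (SE 0.06, edgeR adjusted p = 2.83e-11) in control cells and -0.41 (SE 0.06, adjusted p = 4.69e-07) in knockdown cells. The difference of 0.22 (SE 0.09, adjusted p = 0.0469) passed in 7 of 20 alternatives. It was lost without any 1 library other than Sh2-DMSO replicate 2 and Sh2-Thap replicates 2 and 3, with adjusted p from 0.0512 to 0.168.

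The catalytic Pik3c3 fell from 26.8 ± 1.74 to 18.5 ± 0.286 scaled CPM in control cells and from 23.8 ± 1.75 to 16 ± 1.71 in knockdown cells. Atg14, which brings the complex to the site where autophagosomes form, stood at 14.9 ± 0.0757 and 16 ± 1.31 in the control groups and rose from 11.6 ± 0.601 to 17.4 ± 0.367 in knockdown cells, with a difference of 0.48 (SE 0.11, edgeR adjusted p = 0.00067). Becn1, the scaffold Beclin 1, stood at 44.8 ± 1.36 and 46.3 ± 1.91 in the control groups and fell from 41.8 ± 1.43 to 35.6 ± 0.778 in knockdown cells, with a difference of -0.28 (SE 0.08, adjusted p = 0.0046). With library totals alone, the Becn1 decrease in knockdown cells was -0.11 (adjusted p = 0.0667) and the difference -0.12 (adjusted p = 0.218), and neither passed. In the annotation 43.9% of its exon bases are shared with Cntd1. Ambra1, which binds Beclin 1, rose from 49.9 ± 1.73 to 56.7 ± 1.82 and from 43.4 ± 1.08 to 48.9 ± 1.32. Atg14 and Becn1, partners in 1 complex, had differences of opposite sign, of which that of Atg14 passed under all 20 alternatives.

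Among the membrane genes, thapsigargin raised Wipi2 and Atg2b and lowered Wipi1, Atg2a and Atg9a, in control cells and in knockdown cells. WIPI1 and WIPI2 bind PI3P, ATG2A and ATG2B carry lipid, and ATG9A is the membrane protein that works with them. Under thapsigargin all 5 were lower in knockdown cells than in control cells, beside 28.4% of all genes, and with library totals alone 3 of the 5 were. Wipi1 and Wipi2 thus changed in opposite directions with thapsigargin, as did Atg2a and Atg2b.

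Wipi2 (ENSMUSG00000029578, chromosome 5, 142627698 to 142670588, plus strand) stood at 97.2, 99.9 and 98.6 scaled CPM in Ctrl-DMSO, 164, 162 and 160.4 in Ctrl-Thap, 102, 102 and 98 in Sh2-DMSO and 126, 126 and 131 in Sh2-Thap. The DMSO groups overlapped, Sh2-Thap lay above them and Ctrl-Thap above all. Thapsigargin raised Wipi2 by 0.72 (SE 0.04, edgeR adjusted p = 1.45e-16) in control cells and 0.35 (SE 0.04, adjusted p = 8.47e-09) in knockdown cells. The difference of -0.37 (SE 0.06, adjusted p = 8.11e-06) passed under all 20 alternatives.

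Atg2b (ENSMUSG00000041341, chromosome 12, 105616136 to 105685211, minus strand) stood at 61.5, 61.4 and 59.7 scaled CPM in Ctrl-DMSO, 95.6, 95.4 and 94.4 in Ctrl-Thap, 62.8, 57.8 and 65.9 in Sh2-DMSO and 86.1, 77.2 and 80.8 in Sh2-Thap. The order of the groups was that of Wipi2, with overlap of the DMSO groups. The rises were 0.64 (SE 0.05, edgeR adjusted p = 3.29e-13) and 0.39 (SE 0.05, adjusted p = 5.06e-08), and the difference of -0.26 (SE 0.07, adjusted p = 0.00555) did not pass with library totals alone.

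The counterparts went the other way. Wipi1 fell from 91.3 ± 3 to 75 ± 0.347 scaled CPM in control cells and from 62 ± 1.52 to 48.3 ± 3.56 in knockdown cells, and so was lower with the knockdown in DMSO (-0.56) and under thapsigargin (-0.64). Per kilobase, Wipi1 gave 68.9% of the pair's RPKM in Ctrl-DMSO and 52.5% in Ctrl-Thap. Atg2a gave 53.1% of its pair in Ctrl-DMSO and 35.3% in Ctrl-Thap, having fallen from 39.5 ± 1.92 to 29.6 ± 1.14 scaled CPM. Atg9a fell from 33.9 ± 0.593 to 25.8 ± 0.831 in control cells and from 24.8 ± 0.939 to 19.9 ± 1.01 in knockdown cells, and 32.6% of its exon bases are shared with other genes.

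In control cells the conjugating enzymes and the genes of the ATG12-ATG5-ATG16L1 unit rose, apart from Atg7, while no ATG4 protease gene did. Of the 10 genes 5 rose (Atg3, Atg10, Atg12, Atg5 and Atg16l1), 3 fell (Atg4a, Atg4b and Atg4d) and 2 did not pass (Atg4c and Atg7). These shares of 50% and 30% stood beside 37.7% and 37% of all genes. In knockdown cells 4 rose (40%), 3 fell (30%) and 3 did not pass, beside 35.4% and 34.4% of all genes. The knockdown itself was called for 2 of 10 in DMSO (20%, beside 51.5% of all genes), Atg7 higher and Atg12 lower. Under thapsigargin it was called for 3 of 10 (30%, beside 56.9%). Summed per kilobase, the 10 genes stood at 79.3 ± 0.521 RPKM in Ctrl-DMSO, 99 ± 1.01 in Ctrl-Thap, 82.6 ± 1.23 in Sh2-DMSO and 99.1 ± 1.96 in Sh2-Thap.

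Atg3 (ENSMUSG00000022663, chromosome 16, 45158785 to 45188538, plus strand) encodes the enzyme that passes LC3 to its lipid. It stood at 64.6, 68.4 and 68.5 scaled CPM in Ctrl-DMSO, 111, 111 and 112 in Ctrl-Thap, 67.2, 76.7 and 73.1 in Sh2-DMSO and 104, 112 and 108 in Sh2-Thap. Both thapsigargin groups lay above both DMSO groups, and within each treatment the populations overlapped. Its rise was 0.73 (SE 0.05, edgeR adjusted p = 5.85e-15) in control cells and 0.58 (SE 0.05, adjusted p = 3.31e-12) in knockdown cells.

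Atg10 (ENSMUSG00000021619, chromosome 13, 90935356 to 91223968, minus strand) encodes the corresponding enzyme for ATG12 and had few reads in every group. Its libraries held 5.51, 5.3 and 3.73 scaled CPM in Ctrl-DMSO, 8.37, 6.96 and 7.51 in Ctrl-Thap, 4.95, 3.54 and 4.63 in Sh2-DMSO and 7.73, 5.35 and 7.43 in Sh2-Thap. The control groups did not overlap, whereas knockdown and control cells overlapped in both treatments. The rises were 0.64 (SE 0.14, edgeR adjusted p = 0.00025) and 0.65 (SE 0.15, adjusted p = 0.000403).

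Atg12, the ubiquitin-like protein joined to ATG5, rose from 46.4 ± 1.37 to 65.5 ± 3.16 scaled CPM in control cells and from 41.2 ± 3.29 to 64 ± 0.521 in knockdown cells. Atg5 rose from 46.6 ± 1.3 to 55.5 ± 1.54 and from 49.8 ± 0.83 to 58.4 ± 3.56. Atg16l1, which holds the ATG12-ATG5 conjugate at the membrane, rose from 42.5 ± 1.11 to 51.8 ± 0.896 in control cells but stood at 44.9 ± 2.27 and 44.3 ± 0.868 in the knockdown groups, with a difference of -0.30 (SE 0.07, edgeR adjusted p = 0.00151) that did not pass with library totals alone. Atg7, the activating enzyme, was higher in knockdown cells in DMSO, at 37.3 ± 1.52 against 30.9 ± 1.36, and under thapsigargin, at 34 ± 2.42 against 29.3 ± 1.05. The latter call was lost without Sh2-Thap replicate 3 (adjusted p = 0.0536). The decrease of Atg7 with thapsigargin in knockdown cells (-0.14, adjusted p = 0.0488) was lost in 11 of 21 alternatives, among them those without Sh2-DMSO replicate 2 (0.151) or 3 (0.0531) or without Sh2-Thap replicate 1 (0.239) or 2 (0.0876). The lower Atg12 level with the knockdown in DMSO (-0.17, adjusted p = 0.0116) was lost without Ctrl-DMSO replicate 2 (0.0739) or Sh2-DMSO replicate 2 (0.131).

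The ATG4 proteases prepare LC3 and GABARAP for conjugation and release them again. Atg4b, which gave 37.6% of the family's RPKM in Ctrl-DMSO, fell from 63.9 ± 1.34 to 56.8 ± 1.98 scaled CPM in control cells, and its values of 66 ± 1.28 and 64.2 ± 2.24 in the knockdown groups did not differ past the threshold. Atg4d fell from 18.4 ± 1.82 to 14.7 ± 0.943 and from 20.5 ± 1.46 to 14.7 ± 1.03. Atg4a fell from 11.2 ± 1.2 to 8.65 ± 0.831 and from 11 ± 0.988 to 8.02 ± 0.584, but 51.2% of its transcript stretches of 50 bases also occur in other genes' transcripts, so its counts are uncertain. Atg4c did not pass in any of the 4 comparisons.

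The LC3 and GABARAP genes fell slightly with thapsigargin. In control cells 4 of 5 fell (80%, beside 37% of all genes) and 1 did not pass, with a median log2 change of -0.20. In knockdown cells again 4 of 5 fell (80%, beside 34.4%), with a median of -0.22. With library totals alone 2 of the 5 fell in knockdown cells. Gabarap was the most abundant per kilobase, with 58.7% of the family's RPKM in Ctrl-DMSO, 58.6% in Ctrl-Thap, 62.9% in Sh2-DMSO and 61.6% in Sh2-Thap.

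Map1lc3a (ENSMUSG00000027602, chromosome 2, 155276297 to 155278073, plus strand) encodes LC3A. It stood at 36, 38.8 and 35.5 scaled CPM in Ctrl-DMSO, 30.3, 29.8 and 29.5 in Ctrl-Thap, 23.6, 25.8 and 23 in Sh2-DMSO and 19.3, 21.2 and 21.9 in Sh2-Thap. The 4 groups did not overlap, and every knockdown library lay below every control library. Knockdown cells held less in DMSO (-0.61, SE 0.06, edgeR adjusted p = 1.24e-09) and under thapsigargin (-0.52, SE 0.07, adjusted p = 2.88e-08). Thapsigargin gave -0.30 (SE 0.06, adjusted p = 6.06e-05) in control cells and -0.22 (SE 0.07, adjusted p = 0.00493) in knockdown cells, the latter not passing with library totals alone.

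Gabarapl2 (ENSMUSG00000031950, chromosome 8, 111940703 to 111953612, plus strand), also known as GATE-16, stood at 53.7, 53.9 and 53.8 scaled CPM in Ctrl-DMSO, 39.1, 44.8 and 38.6 in Ctrl-Thap, 57.6, 54 and 54.7 in Sh2-DMSO and 46.7, 45.5 and 47.5 in Sh2-Thap. The groups did not overlap, though the DMSO groups parted only at 53.9 against 54, and Ctrl-Thap was lowest. The knockdown change in DMSO did not pass, here or in any of 21 alternatives. Under thapsigargin the higher level in knockdown cells passed, also in all 21. Its decrease was -0.39 (SE 0.06, edgeR adjusted p = 1.57e-07) in control cells and -0.25 (SE 0.06, adjusted p = 0.000191) in knockdown cells. Of its transcript stretches 12.2% occur in other genes too.

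Map1lc3b, which encodes the LC3B protein used as the standard marker of autophagosomes, went from 183 ± 3.1 to 165 ± 7.3 scaled CPM in control cells and from 167 ± 5.37 to 154 ± 6.89 in knockdown cells. Its decrease in knockdown cells (-0.12, edgeR adjusted p = 0.0199) passed in 14 of 21 alternatives, with an adjusted p of up to 0.989, and was lost without Sh2-DMSO replicate 1 (0.0615) or Sh2-Thap replicate 1 (0.115). Gabarap went from 306 ± 12.8 to 267 ± 5.26 and from 309 ± 10.2 to 264 ± 12. Gabarapl1 stood at 76.8 ± 0.549 and 75.7 ± 0.896 in the control groups and 64.7 ± 4.07 and 63 ± 2.78 in the knockdown groups, lower with the knockdown in both treatments (-0.25 and -0.26). It shares 28.3% of its exon bases with another gene.

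The cargo receptors held the largest change of all members. In control cells Sqstm1, Optn, Nbr1 and Tax1bp1 rose and Tex264 did not pass. In knockdown cells the same 4 rose (80% of the 5 tested in each population, beside 37.7% and 35.4% of all genes) and Tex264 fell. These 4 bind ubiquitin on cargo, while Tex264 and Ccpg1 are receptors for the ER. The difference of the effects passed for all 5 tested receptors, beside 35.4% of all genes. It was negative for Sqstm1, Optn, Tex264 and Tax1bp1 and positive for Nbr1, whereas with library totals alone 1 was negative and 1 positive.

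Sqstm1 (ENSMUSG00000015837, chromosome 11, 50199366 to 50210827, minus strand) encodes p62, a receptor that also gathers the NRF2 inhibitor KEAP1. It stood at 603, 675 and 606 scaled CPM in Ctrl-DMSO, 2533, 2551 and 2526 in Ctrl-Thap, 787, 805 and 747 in Sh2-DMSO and 1971, 1941 and 1993 in Sh2-Thap. The 4 groups were apart, and the order of the populations turned round between treatments, with knockdown cells above control cells in DMSO and below them under thapsigargin. Thapsigargin raised it 4.04-fold in control cells (log2 2.01, SE 0.05, edgeR adjusted p = 1.05e-27) and 2.53-fold in knockdown cells (1.34, SE 0.05, adjusted p = 9.99e-23). The difference was -0.68 (SE 0.06, adjusted p = 1.77e-10), the most negative among the members. The knockdown gave 0.31 (SE 0.04, adjusted p = 5.03e-07) in DMSO and -0.37 (SE 0.04, adjusted p = 1.37e-08) under thapsigargin. Per kilobase it made up 71.2% of the receptors' RPKM in Ctrl-DMSO and 88.4% in Ctrl-Thap. The annotation shares 17.3% of its exon bases with Mrnip.

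Optn (ENSMUSG00000026672, chromosome 2, 5020642 to 5064051, minus strand) encodes optineurin, a receptor known from mitophagy and the clearance of bacteria. Its libraries held 36.9, 34.5 and 36.9 scaled CPM in Ctrl-DMSO, 72.1, 74.8 and 73.5 in Ctrl-Thap, 47, 47.3 and 47.6 in Sh2-DMSO and 79.6, 85.5 and 77.3 in Sh2-Thap. All groups were apart, and knockdown libraries were the higher ones in both treatments. Thapsigargin raised Optn by 1.03 (SE 0.05, edgeR adjusted p = 2.17e-18) in control cells and 0.77 (SE 0.05, adjusted p = 4.72e-15) in knockdown cells. The difference was -0.25 (SE 0.07, adjusted p = 0.00573) and did not pass with library totals alone. The knockdown gave 0.39 (SE 0.05, adjusted p = 1.83e-07) in DMSO and 0.14 (SE 0.05, adjusted p = 0.0181) under thapsigargin, the latter lost without Ctrl-Thap replicate 1 (0.0734) or Sh2-Thap replicate 2 (0.141).

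Nbr1, a receptor related to p62, rose from 162 ± 4.14 to 224 ± 4.42 scaled CPM in control cells and from 127 ± 9.04 to 207 ± 8.61 in knockdown cells, where it began lower (-0.36, edgeR adjusted p = 1.49e-07). Its difference of 0.25 (SE 0.07, adjusted p = 0.00392) passed under all 20 alternatives. The lower level in knockdown cells under thapsigargin (-0.11, adjusted p = 0.0432) passed in 11 of 21 and turned to 0.02 with library totals alone. Leaving out any of 6 libraries (Ctrl-DMSO replicate 1, Ctrl-Thap replicates 2 and 3, Sh2-DMSO replicate 1, Sh2-Thap replicates 2 and 3) ended it, with adjusted p from 0.0507 to 0.147.

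Tax1bp1 rose from 168 ± 1.82 to 226 ± 4.03 in control cells and from 166 ± 2.23 to 202 ± 6.9 in knockdown cells, and its difference of -0.15 (adjusted p = 0.0412) passed in 10 of 20 alternatives and was 0.01 with library totals alone. It was lost without Ctrl-DMSO replicate 1 or 3, Ctrl-Thap replicate 1 or 2, Sh2-DMSO replicate 1 or Sh2-Thap replicate 1 or 3, with adjusted p from 0.0513 to 0.119. Tex264 stood at 73.5 ± 0.838 and 70.1 ± 3.95 in the control groups and fell from 75.6 ± 3.54 to 60.3 ± 1.37 in knockdown cells (difference -0.26, SE 0.07, edgeR adjusted p = 0.00433, not passing with library totals alone). Ccpg1, known as an ER receptor that ER stress induces, had 0 to 3 reads in every library and was not tested. In the annotation 55.8% of its exon bases are shared with Gm44503 and Pigb. Gm44503, on the same strand, had 0 reads in every library, and reads ambiguous between genes were left out of the counts. The part of this sharing in the low count of Ccpg1 was not tested, so that count does not show whether the gene was expressed.

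The lysosomal regulators changed in opposite directions. Tfeb fell with thapsigargin and Tfe3 rose in control cells, and both changes were smaller in knockdown cells. The 2 genes encode related factors that switch on lysosomal and autophagy genes when they enter the nucleus, a step that RNA levels do not show. Lamp1 and Lamp2, which encode the main glycoproteins of the lysosomal membrane, fell in both populations.

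Tfeb (ENSMUSG00000023990, chromosome 17, 47737030 to 47792419, plus strand) stood at 9.82, 11 and 9.43 scaled CPM in Ctrl-DMSO, 4.34, 4.69 and 5.23 in Ctrl-Thap, 7.99, 9.65 and 9.2 in Sh2-DMSO and 6.7, 7.14 and 8.08 in Sh2-Thap. The DMSO groups overlapped, the Sh2 groups overlapped, and Ctrl-Thap lay below every other library. The change was -1.08 (SE 0.11, edgeR adjusted p = 8.32e-11) in control cells and -0.29 (SE 0.11, adjusted p = 0.0139) in knockdown cells. The latter was lost without Sh2-DMSO replicate 2 (0.0651) or Sh2-Thap replicate 1 (0.0772), with DESeq2 (0.0589) and with library totals alone (-0.17, adjusted p = 0.146). The difference of 0.79 (SE 0.15, adjusted p = 8.42e-05) was the largest among the members and passed under all 20 alternatives. Under thapsigargin knockdown cells held more Tfeb (0.62, SE 0.11, adjusted p = 1.73e-05), and in DMSO the difference of -0.17 (SE 0.10, adjusted p = 0.162) did not pass.

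Tfe3 (ENSMUSG00000000134, chromosome X, 7762560 to 7775202, plus strand) stood at 93.7, 96.9 and 96.3 scaled CPM in Ctrl-DMSO, 138, 139.6 and 156 in Ctrl-Thap, 75.5, 76.6 and 76.6 in Sh2-DMSO and 83, 80.9 and 88.6 in Sh2-Thap. Every knockdown library lay below every control library, and within each population the treatments were apart. Thapsigargin raised Tfe3 by 0.60 (SE 0.05, edgeR adjusted p = 5.67e-13) in control cells and 0.14 (SE 0.05, adjusted p = 0.0115) in knockdown cells, the latter lost without Sh2-DMSO replicate 1 (0.0501) or Sh2-Thap replicate 3 (0.0993). The difference was -0.45 (SE 0.07, adjusted p = 2.99e-06). Knockdown cells held less Tfe3 in DMSO (-0.33, SE 0.05, adjusted p = 1.31e-06) and under thapsigargin (-0.78, SE 0.05, adjusted p = 2.35e-15), the lowest change of any member in the last comparison. Per kilobase Tfeb made up 14.7% of the pair's RPKM in Ctrl-DMSO, 5.09% in Ctrl-Thap, 16.1% in Sh2-DMSO and 12.4% in Sh2-Thap.

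Lamp1 fell from 581 ± 12.1 to 397 ± 13.3 scaled CPM in control cells and from 668 ± 24.8 to 432 ± 8.39 in knockdown cells. It was higher with the knockdown in DMSO (0.20, edgeR adjusted p = 0.000152), and the smaller difference under thapsigargin (0.12, adjusted p = 0.0155) was lost without Ctrl-Thap replicate 1 (0.0932). Lamp2, which also serves chaperone-mediated autophagy, fell from 417 ± 13 to 331 ± 11 and from 363 ± 19.1 to 265 ± 13.7, and was lower with the knockdown in DMSO (-0.20) and under thapsigargin (-0.32).

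**Figure D2:**
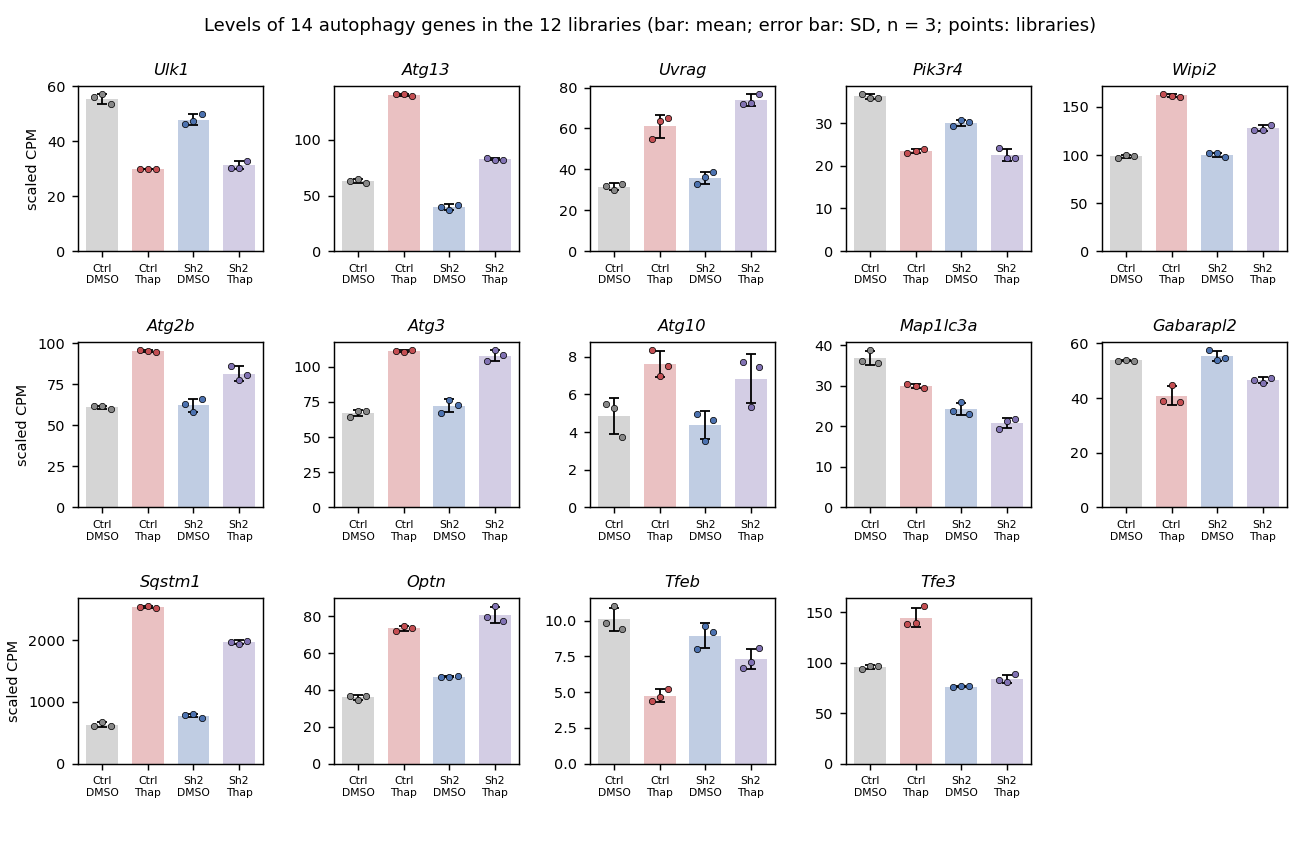
Level in scaled CPM (vertical axes, each from 0) of the 14 genes described with every library, by group; bars are means, error bars SD with n = 3, points libraries. Sqstm1 reaches 2537 in Ctrl-Thap and 1968 in Sh2-Thap, and Tfeb is lowest in Ctrl-Thap at 4.75.

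**Figure D3:**
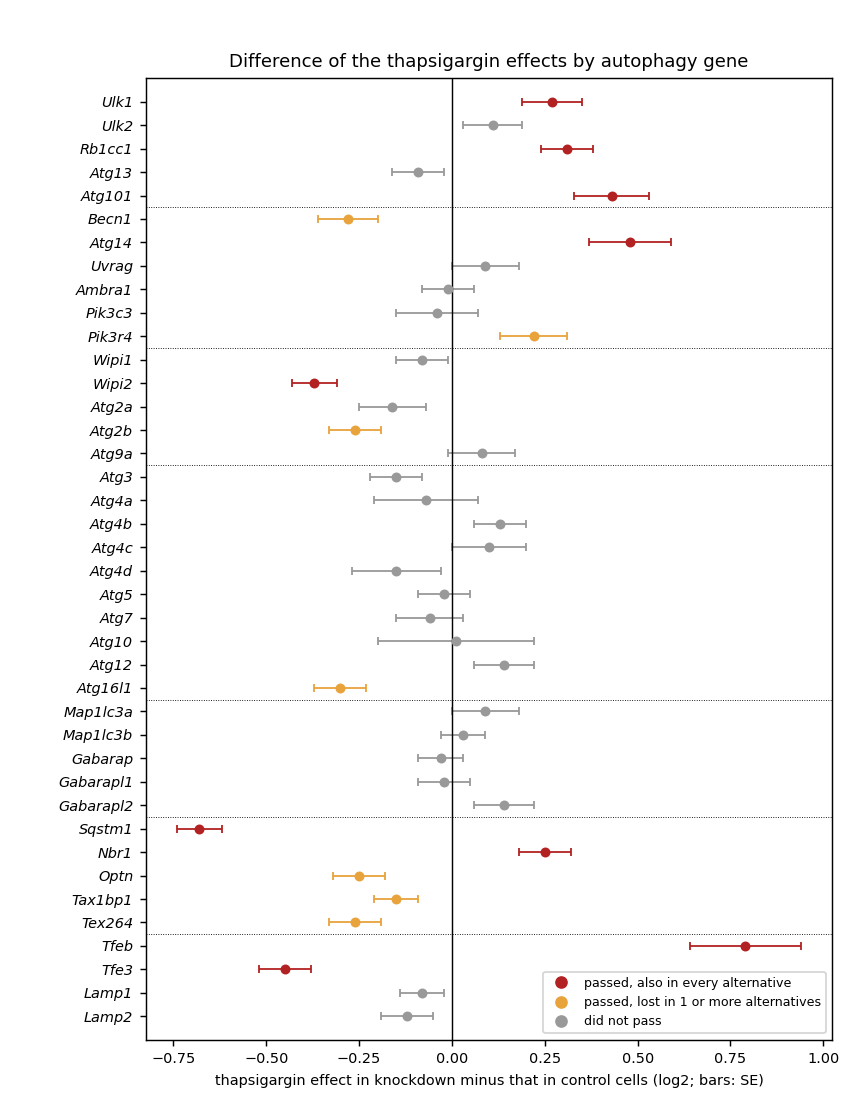
Thapsigargin effect in knockdown cells minus that in control cells (log2, horizontal axis, bars SE) for the 40 genes, in order of their steps with dotted lines between steps. Red points passed here and in every alternative, orange points passed but were lost in at least 1, and grey points did not pass; Tfeb lies farthest right at 0.79 and Sqstm1 farthest left at -0.68.

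Other genes of the pathway, listed by step and not among the 41, numbered 87, of which 85 were tested. In control cells 21 rose with thapsigargin (24.7%), 54 fell (63.5%) and 10 did not pass, a median of -0.21. Of all genes 37.7% rose and 37% fell. In knockdown cells 23 rose (27.1%), 51 fell (60%) and 11 did not pass, beside 35.4% and 34.4% of all genes. The knockdown gave 28 higher (32.9%) and 27 lower (31.8%) in DMSO, beside 25% and 26.5% of all genes. Under thapsigargin it gave 37 higher (43.5%) and 29 lower (34.1%), beside 28.5% and 28.4%. The difference of effects was positive for 21 (24.7%) and negative for 19 (22.4%), beside 17.7% of all genes in each direction. The plot of changes by step sets these lists beside the members. In each list the 2 genes with the largest change in control cells are named.

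**Figure D4:**
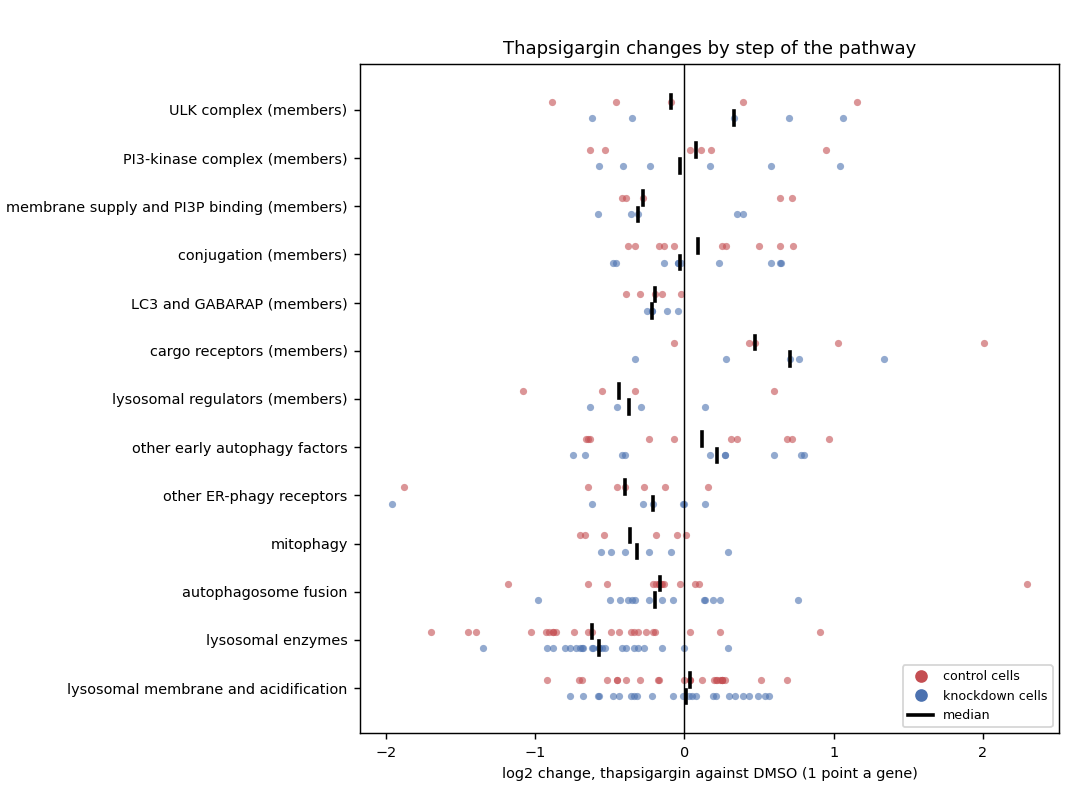
Log2 change with thapsigargin (horizontal axis) of each gene, 1 point a gene, by step for the members and the other lists, in control cells (red) and knockdown cells (blue), with black ticks at the median. The lysosomal enzymes lie mostly left of 0, with medians of -0.62 and -0.57, and the receptors among the members lie mostly to the right.

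Near the start of the pathway 5 of 10 other factors rose in control cells (50%), 4 fell (40%) and 1 did not pass. Of all genes 37.7% rose and 37% fell. Tmem41b, an ER membrane protein needed to form autophagosomes, rose from 37.4 ± 0.604 to 73.2 ± 4.01 scaled CPM in control cells and from 40.1 ± 0.949 to 48.3 ± 0.208 in knockdown cells (difference -0.70, SE 0.07, edgeR adjusted p = 3.1e-09). Nrbf2, a subunit of the ATG14 form of the PI3-kinase complex, rose from 7.76 ± 0.627 to 12.8 ± 0.714 and from 7.45 ± 0.348 to 13 ± 0.627.

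Receptors outside the members mostly fell in control cells. Of 7 other ER receptors 6 fell (85.7%) and 1 rose (14.3%) in control cells, beside 37% and 37.7% of all genes. Of 6 tested mitophagy genes 4 fell (66.7%) and 2 did not pass. Retreg3 fell from 66.6 ± 2.41 to 18.1 ± 0.371 scaled CPM in control cells and from 59.3 ± 2.17 to 15.2 ± 0.863 in knockdown cells. Calcoco1 fell from 80.3 ± 2.23 to 51.1 ± 2 and from 55.9 ± 2.38 to 48.4 ± 2.8. Bnip3l and Bnip3, receptors on mitochondria, fell in control cells (log2 -0.70 and -0.67), and Bnip3 was also lower with the knockdown in DMSO (-1.09, edgeR adjusted p = 7.37e-07).

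Fusion genes mostly fell in control cells, most of them by small changes. Of 14 such genes 10 fell (71.4%), 3 did not pass and 1 rose (7.14%) in control cells. Of all genes 37% fell and 37.7% rose. The median absolute log2 change of the fusion genes was 0.17, against 0.55 for all genes. The gene that rose was Epg5, a tether that directs autophagosomes to lysosomes, from 15.7 ± 1.09 to 77.2 ± 1.97 scaled CPM in control cells and from 19 ± 2.6 to 32.1 ± 6.05 in knockdown cells (difference -1.54, SE 0.16, edgeR adjusted p = 2.58e-06). Vamp8, a SNARE of the fusion step, fell from 52.2 ± 2.17 to 22.9 ± 2.76 and from 59.9 ± 5.14 to 30.3 ± 1.19. In knockdown cells 8 of the 14 fusion genes fell (57.1%), 4 rose (28.6%) and 2 did not pass. Of all genes 34.4% fell and 35.4% rose there, and the median absolute log2 change was 0.29 for the fusion genes and 0.45 for all genes.

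Of 23 lysosomal enzymes 20 fell in control cells (87%), 2 rose (8.7%) and 1 did not pass, beside 37% and 37.7% of all genes. In knockdown cells 21 fell (91.3%), 1 rose (4.35%) and 1 did not pass, beside 34.4% and 35.4% of all genes. Gusb, the enzyme beta-glucuronidase, fell from 71.6 ± 1.49 to 22.1 ± 0.334 scaled CPM and from 90.3 ± 1.88 to 35.4 ± 0.677. Naglu, which degrades heparan sulfate, fell from 34.4 ± 1.11 to 12.5 ± 0.695 and from 22.1 ± 0.695 to 13.8 ± 0.607. The membrane and acidification list was even, with 11 of 24 genes higher (45.8%), 10 lower (41.7%) and 3 not passing in control cells. Npc2, which carries cholesterol in the lysosome, fell in control cells (log2 -0.92), and Ostm1, a partner of the chloride transporter CLC-7, fell as well (-0.71). Mitf, a relative of Tfeb and Tfe3, rose from 11.7 ± 0.928 to 23.7 ± 1.06 in control cells and from 7.73 ± 1.15 to 12.7 ± 0.499 in knockdown cells.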

How the data were processed

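The authors deposited raw counts of reads per gene for 12 poly(A) RNA libraries. Per the submitters' processing notes, Trim Galore, STAR 2.5.3a, bedtools 2.31.0 and DESeq2 were used, with the builds mm10 and hg38 named. No counter, annotation release or strand is given in the sources used here, and overlapping genes are therefore uncertain. Of all reads, 13.32% to 14.61% fell in 5 entries without a gene, including 6.47% to 6.88% ambiguous between genes, and were left out. Gene models came from GENCODE vM21 on GRCm38, which matched 53706 of 53801 identifiers.

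The counts were fitted in edgeR 4.0.16 (TMM factors 0.967 to 1.073, filterByExpr, robust quasi-likelihood, 4 groups, 8 residual degrees of freedom), leaving 15828 genes. P-values were adjusted by the Benjamini-Hochberg method over all genes tested, and a call needs one under 0.05. The SE is approximate, being derived from the log2 change and its F statistic. RPKM uses the summed exon length.

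The members and lists were chosen with earlier results of these data known. Values in every library are given for the 2 members of each step that changed most with thapsigargin in control cells, and for members with a called log2 change of at least 1, or of at least 0.5 for the difference of effects. In each pathway list the 2 called genes that changed most are named. Alternatives were other scalings and filters, DESeq2 1.42.0, limma-voom (limma 3.58.1), a replicate block, an adjusted p under 0.01, fits of the compared groups alone and leaving out each library, in R 4.3.3.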

Additional observations from a re-analysis of the deposited data

Results flagged for a closer look

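For 16 members the thapsigargin effect differed between knockdown and control cells by the test of the difference itself (edgeR, adjusted over all genes). The log2 difference, knockdown minus control, was 0.79 for Tfeb, 0.48 for Atg14, 0.43 for Atg101, 0.31 for Rb1cc1, 0.27 for Ulk1, 0.25 for Nbr1 and 0.22 for Pik3r4. It was -0.68 for Sqstm1, -0.45 for Tfe3, -0.37 for Wipi2, -0.30 for Atg16l1, -0.28 for Becn1, -0.26 for Atg2b, -0.26 for Tex264, -0.25 for Optn and -0.15 for Tax1bp1. The differences of Tfeb, Atg14, Atg101, Rb1cc1, Ulk1, Nbr1, Sqstm1, Tfe3 and Wipi2 passed under all 20 alternatives, and the other 7 were lost in at least 1. Calls were made for 35.4% of all genes in this comparison.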

How the results depend on the processing

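All 33 calls for thapsigargin in control cells held under the 21 alternatives that keep the adjusted p of 0.05, 30 of 36 did in knockdown cells, 18 of 21 for the knockdown in DMSO, 16 of 29 for the knockdown under thapsigargin, and 9 of 16 differences under 20 alternatives. No called change turned to a called change of the other sign. Scaling by library totals alone ended 5, 1, 9 and 6 calls in the last 4 of these comparisons. It lowered the members called lower in knockdown cells under thapsigargin from 20 to 11, raised the positive differences from 7 to 16 and lowered the negative ones from 9 to 3. The share of all called genes that rose then went from 50.8% to 60.5% for thapsigargin in knockdown cells, from 50.1% to 66.6% for the knockdown under thapsigargin and from 49.9% to 75.6% for the difference.

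Leaving out each library in turn gave 16 members up and 17 to 18 down for thapsigargin in control cells (3 to 4 and 1 past a log2 change of 1), 16 to 17 up and 16 to 19 down in knockdown cells (2 to 3 and 0 past 1), 4 to 6 up and 14 to 17 down for the knockdown in DMSO, 6 to 9 up and 17 to 20 down for it under thapsigargin, and 6 to 7 up and 8 to 10 down for the difference. Same-numbered libraries of different groups correlated at -0.03 to 0.08 after removal of group means. They thus shared little variation, which cannot show whether the numbers pair the samples. With a replicate block all members' calls held and Pik3c3 was also called for the knockdown in DMSO (-0.17, adjusted p = 0.0375). Precision is limited by 3 libraries a group and, for Atg10 and Tfeb, by low counts.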
